A study of Mus musculus with 30 samples.

Results

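The step from sampling point 3 to sampling point 4 after insulin was examined in mouse liver. It rests on 6 of the 30 RNA-seq libraries of the series, 3 per point, chosen by their labels alone. Of the 29117 genes in the expression table, 11872 reached at least 1 FPKM (fragments scaled to transcript length and library size) in at least 3 of these 6 libraries and were tested. All mice were 10-week-old C57BL/6J, an inbred strain without a transgene in the labels, and had been deprived of food for 12 to 16 h. The insulin arm then received human insulin intraperitoneally at 0.7 U/kg, and the PBS arm received phosphate-buffered saline. The left liver lobe was sampled at 5 numbered points within 4 h, with 3 libraries for each arm and point. The labels give no minutes for the points, so the step is described by number and no rate is derived from it. The PBS libraries of points 3 and 4, again 3 and 3, measured the same step without insulin.

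Insulin acts on hepatocytes through its receptor, the Irs adaptors and PI 3-kinase, which activate the kinase Akt. Akt phosphorylates the Foxo transcription factors and moves them out of the nucleus, so genes that Foxo drives in fasting, such as those for Igfbp1, glucose-6-phosphatase and Pdk4, are held down while the signal lasts. The fasting hormone glucagon and catecholamines raise cAMP and switch on CREB, whose quick targets include the Nr4a nuclear receptors, the kinase Sik1 and the coactivator Ppargc1a. Bulk liver RNA reports all cells of the lobe together.

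The 6 libraries had the profile of liver. The 9 hepatocyte markers found in the table summed to 45420 to 54960 FPKM at point 3 and 45940 to 58070 at point 4. Marker sums of Kupffer cells were 119 to 152 and 102 to 135 FPKM, and those of sinusoidal endothelium 71.4 to 78.2 and 64.2 to 82.4. None of the tested markers in 12 cell type lists passed the test of this step, beside 0.303% of all genes tested. Retnlg of neutrophils, Slc4a1 of red cells and Cfd of fat cells were at 0 in all 6 libraries, but other markers of these cells were present. Red cell markers summed to 277 to 485 FPKM at point 3 and 228 to 393.5 at point 4. Neutrophil markers summed to 5.59 to 14.75 and 9.27 to 12.4 FPKM, and those of fat cells to 8.69 to 9.17 and 6.39 to 9.19. Depth, estimated roughly from the steps between low values, was 20.0 to 36.1 M reads in the 6 libraries. Pearson correlations across genes on the log2(FPKM + 1) scale were 0.971 to 0.977 within a point and 0.968 to 0.979 between the points. Replicates 1 and 3 of both points were on lane 2 and replicate 2 of both on lane 1, so the lanes were balanced. In point 3 replicate 2, targets of CREB and several immediate early genes stood far above the other libraries. Among point 3 libraries it also had the highest mean log2(FPKM + 1) over the Foxo, glucocorticoid, growth arrest, glycolysis and clock lists described below. Its means were the lowest of point 3 for cytosolic chaperones and for marks of RNA quality, the latter at 4.679 against 5.506 and 5.115. Values without this library are given beside the counts and medians that it moved.

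From point 3 to point 4 of the insulin arm, 36 genes changed, 22 higher and 14 lower at point 4. The largest rises were those of Rgs16, a brake on G protein signalling, Pdk4, the kinase that shuts off pyruvate dehydrogenase, and Txnip, an arrestin that limits glucose uptake. The largest falls were those of Nr4a1, a CREB-induced nuclear receptor, and Noct, a clock-linked phosphatase of NADP(H). Of the changed genes, 10 rose and 5 fell by 2-fold or more, and 7 and 3 did so without point 3 replicate 2. A gene counts as changed when limma's test gave an adjusted p below 0.05 over all 11872 genes. The 36 genes were 0.303% of those tested, with 0.185% higher and 0.118% lower. All 36 had 3 libraries of one point above all 3 of the other, an arrangement found in 8.84% of all genes tested (5.6% higher, 3.24% lower). The 36 were picked by a test on these same libraries, so this separation follows from the choice and adds no support. Sizes are differences of log2(FPKM + 1), which understate the change of low genes, and the median over all genes was 0.01. The count fell to 11 without point 3 replicate 2, to 17 without point 3 replicate 3, and to 11 without point 4 replicate 1 or point 4 replicate 3. Of the 11 without point 3 replicate 2, 10 were among the 36. The remaining one was Hspa1b, a heat shock protein with a near-identical copy, named here after its values were seen.

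**Figure D1:**
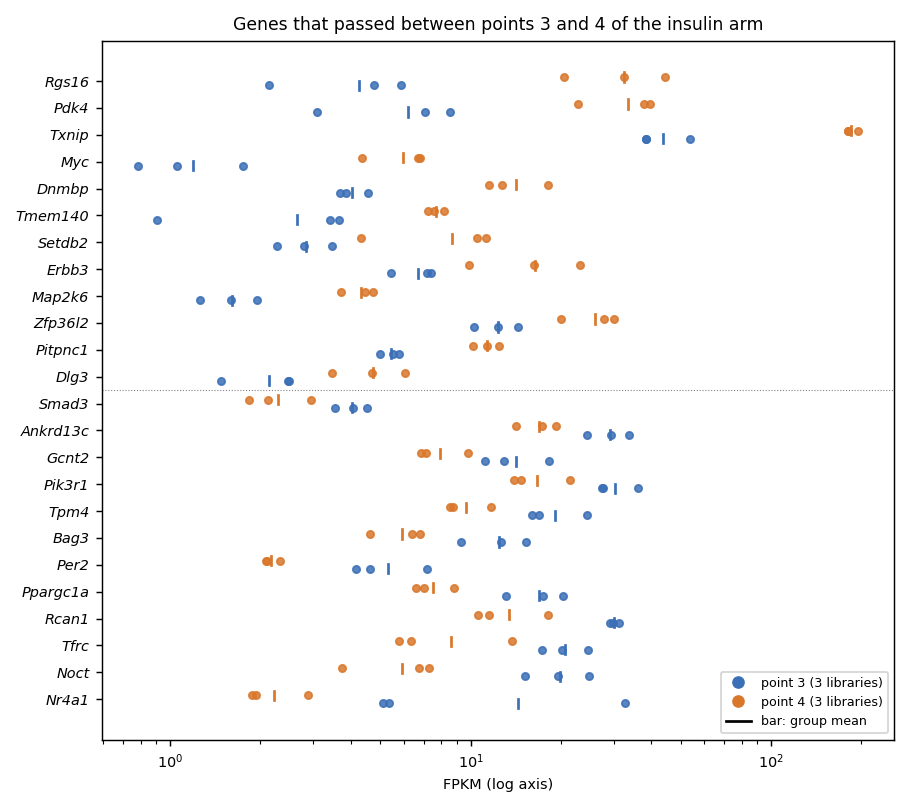
FPKM (log axis) of the 24 genes with the largest changes in the 6 insulin libraries; dots are libraries and bars are group means of 3. The 12 upper genes have all point 4 libraries to the right of all point 3 libraries, and the 12 lower genes the reverse. The rule that named these genes required this separation. Nr4a1 has 1 point 3 library at 32.5 far from the others.

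Txnip showed the most certain change of the step. It measured 38.3, 38.5 and 53.9 FPKM at point 3 and 195, 179.8 and 179.8 FPKM at point 4. Every point 4 library was more than 3 times above every point 3 library. The difference was 2.08 ± 0.16 (log2, SE, n = 3 per group, adjusted p = 1.98e-08), and its call held under each of the 20 alternatives tried. Pdk4 measured 3.08, 7.04 and 8.52 FPKM at point 3 and 37.7, 39.5 and 22.8 FPKM at point 4. The groups stayed well apart although the point 3 libraries varied widely, and the rise was 2.30 ± 0.26 (adjusted p = 1.32e-05). Both genes are known Foxo targets, and both stood in the list of insulin receptor and Foxo genes.

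Dnmbp, a scaffold that activates the small GTPase Cdc42 at cell junctions, measured 3.86, 3.69 and 4.57 FPKM at point 3. At point 4 it measured 12.8, 11.5 and 18.1 FPKM, again without overlap. Its rise was 1.57 ± 0.14 (adjusted p = 1.70e-07). Erbb3, the neuregulin receptor that pairs with other ErbB receptors, went from 7.41, 7.14 and 5.46 FPKM to 16.2, 9.87 and 23.1 FPKM. The point 4 libraries were uneven, with replicate 2 lowest, and the rise was 1.12 ± 0.18 (adjusted p = 0.00214). Pitpnc1, a phosphatidylinositol transfer protein, went from 5.78, 5.54 and 5.01 FPKM to 11.4, 12.5 and 10.2 FPKM, with little spread at either point. It rose by 0.94 ± 0.15 (adjusted p = 0.00241). Myc, a growth-related transcription factor, was low throughout, at 1.75, 0.783 and 1.05 FPKM and then 6.81, 6.70 and 4.37 FPKM. It rose by 1.67 ± 0.24 (adjusted p = 4.61e-04). These 6 genes kept their calls when any single one of the 6 libraries was left out, as did 2 that fell. In a fit of the 6 libraries alone, Txnip was the one of the named genes that passed, and Dnmbp missed at 0.0585. Erbb3, Myc and Pitpnc1 also missed in the 15 insulin libraries alone (adjusted p = 0.0905, 0.0502 and 0.061). They missed with a lane term in the insulin libraries as well (adjusted p = 0.0937, 0.0572 and 0.0557). With whole replicate numbers left out, Erbb3 missed without number 3, and Pitpnc1 without number 2 or 3.

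Those 2 were Ppargc1a, the coactivator of mitochondrial and gluconeogenic genes, and Rcan1, an inhibitor of the phosphatase calcineurin. Ppargc1a measured 20.3, 17.5 and 13.2 FPKM at point 3 and 7.03, 8.83 and 6.58 FPKM at point 4. Each point 4 library was below the lowest of point 3, and the gene fell by 1.07 ± 0.15 (adjusted p = 3.76e-04). Rcan1 was even across point 3, at 29.1, 29.8 and 31.1 FPKM, and measured 10.6, 18.2 and 11.5 FPKM at point 4. It fell by 1.14 ± 0.16 (adjusted p = 4.61e-04), a call that ended when replicate number 3 was left out of all groups. In point 4, replicate 2 was the highest library for both genes.

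Another 7 named genes rose, but their calls ended in at least 1 of the fits without a single library. Rgs16 measured 4.78, 2.13 and 5.89 FPKM at point 3 and 32.3, 20.4 and 44.4 FPKM at point 4. Its rise of 2.67 ± 0.47 (adjusted p = 0.00839) was the largest among the changed genes, and its SE was also large. Tmem140, a membrane protein gene, was at 0.904, 3.42 and 3.65 FPKM and then at 7.24, 7.57 and 8.13 FPKM. Replicate 1 of point 3 was the low library, and the rise was 1.35 ± 0.23 (adjusted p = 0.00688). Setdb2, a histone methyltransferase of the SET domain family, rose by 1.26 ± 0.23 (adjusted p = 0.0108), from 2.28, 2.78 and 3.46 FPKM to 10.5, 4.33 and 11.3 FPKM. Map2k6, a kinase that activates p38, went from 1.59, 1.95 and 1.26 FPKM to 4.47, 3.72 and 4.74 FPKM. It rose by 1.03 ± 0.20 (adjusted p = 0.0154). Zfp36l2, a protein that binds AU-rich mRNA and speeds its decay, rose by 1.01 ± 0.22 (adjusted p = 0.0397). Dlg3, a membrane scaffold, rose by 0.86 ± 0.17 (adjusted p = 0.0233), and Il6ra, the interleukin-6 receptor chain, by 0.58 ± 0.13 (adjusted p = 0.0465). Il6ra was tight, at 13.4, 13.5 and 11.9 FPKM and then at 19.9, 19.5 and 20.4 FPKM. Without point 4 replicate 3, all 7 calls ended (adjusted p = 0.0508 to 0.226). Without point 4 replicate 1, the calls of all but Tmem140 ended (0.0583 to 0.212), and without point 3 replicate 2, those of Dlg3, Il6ra, Rgs16, Setdb2 and Zfp36l2 (0.0648 to 0.231). Without point 3 replicate 3, Il6ra, Map2k6 and Zfp36l2 did not pass (0.102 to 0.200). Without point 3 replicate 1, Il6ra and Zfp36l2 did not pass (0.0704 and 0.149), and without point 4 replicate 2 Il6ra did not (0.0854).

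Another 11 named genes fell, and none of them kept its call in all of these fits. Nr4a1 measured 5.34, 32.5 and 5.12 FPKM at point 3 and 1.93, 2.87 and 1.87 FPKM at point 4. The groups did not overlap, but point 3 replicate 2 was several times the other libraries. The fall was 1.77 ± 0.37 (adjusted p = 0.0365) with that library and 0.96 without it (adjusted p = 0.0666). Noct measured 15.2, 24.8 and 19.5 FPKM and then 3.74, 7.28 and 6.72 FPKM. It fell by 1.61 ± 0.31 (adjusted p = 0.021), with all point 4 libraries well below those of point 3. Tfrc, the transferrin receptor that brings iron into cells, measured 17.3, 24.6 and 20.2 FPKM and then 5.80, 13.8 and 6.32 FPKM. It fell by 1.25 ± 0.27 (adjusted p = 0.0397), and point 4 replicate 2 was its highest library at that point. Per2, a repressor of the core clock, fell by 0.96 ± 0.20 (adjusted p = 0.037), from 4.63, 7.16 and 4.16 FPKM to 2.09, 2.33 and 2.1 FPKM. Bag3, a cochaperone of Hsp70, fell by 0.94 ± 0.17 (adjusted p = 0.00835), from 9.30, 15.3 and 12.7 FPKM to 4.62, 6.80 and 6.38 FPKM. Both had their highest value in point 3 replicate 2, and neither had overlapping groups.

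Pde4d, a phosphodiesterase that breaks down cAMP, fell by 0.95 ± 0.21 (adjusted p = 0.0403), from 1.72, 2.56 and 1.84 FPKM to 0.504, 0.647 and 0.540 FPKM. Pik3r1, the regulatory subunit of PI 3-kinase, fell by 0.84 ± 0.18 (adjusted p = 0.035), from 27.4, 36.1 and 27.5 FPKM to 14.7, 21.4 and 13.9 FPKM. Tpm4, an actin-binding tropomyosin, fell by 0.91 ± 0.17 (adjusted p = 0.0108), from 16.9, 24.4 and 16.0 FPKM to 8.72, 11.7 and 8.53 FPKM. For all of these, replicate 2 was the highest library at both points. Gcnt2, a glycosyltransferase of the I blood group antigen, and Ankrd13c, an ankyrin repeat protein, each fell by 0.75 (adjusted p = 0.0465 and 0.0403). Smad3, a transducer of TGF-beta and activin signals, fell by 0.62 ± 0.14 (adjusted p = 0.0465). The calls of all 11 ended without point 3 replicate 2 (adjusted p = 0.0666 to 0.307) and also without point 4 replicate 1 (0.0991 to 0.249). All but Bag3 did not pass without point 4 replicate 3 (0.0684 to 0.299). Without point 3 replicate 3, the calls of 7 ended, namely Ankrd13c, Gcnt2, Noct, Pde4d, Pik3r1, Smad3 and Tfrc (0.0679 to 0.144). Pde4d and Per2 also did not pass without point 4 replicate 2 (0.0723 and 0.0671). Apart from Nr4a1, whose fall became 1.84 times smaller, no named call moved by more than 1.5 times when a library was left out.

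The naming rules, by size, level, symbol or list membership, did not pick the remaining 10 changed genes. They are named only after their values were seen. Tead1, Kank1, Bach2, Atf7ip, Klhl20, Mindy2, Ccdc157, Plpp3 and 2810013P06Rik rose, and AA986860 fell. None of the 10 was among the 11 genes that passed without point 3 replicate 2. Bach2, Klhl20 and Pde4d were the changed genes with a mean under 2 FPKM that passed the expression filter in exactly 3 libraries, those of the higher point. They had to differ to be tested at all. Just inside that filter were 416 genes at 1 FPKM or more in 3 libraries, with a median mean of 1.04 FPKM. Just outside were 513 genes that reached it in 2 libraries, with a median mean of 0.875 FPKM.

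Promoters from RefSeq on GRCm38.p6, 250 bases before to 50 after each annotated start, are shown for 3 changed genes that hold one of the short motifs searched. The motifs were the forkhead motif GTAAACA of Foxo and related factors and the cAMP response element TGACGTCA of CREB. Another was the E-box CACGTG of clock transcription factors, and each was searched on both strands. Capitals mark the match, which reads TGTTTAC where the forkhead motif lies on the other strand. Txnip and Tmem140 rose, and Rcan1 fell; the Rcan1 window is its second listed start.
Txnip, chr3:96557707-96558006, plus strand: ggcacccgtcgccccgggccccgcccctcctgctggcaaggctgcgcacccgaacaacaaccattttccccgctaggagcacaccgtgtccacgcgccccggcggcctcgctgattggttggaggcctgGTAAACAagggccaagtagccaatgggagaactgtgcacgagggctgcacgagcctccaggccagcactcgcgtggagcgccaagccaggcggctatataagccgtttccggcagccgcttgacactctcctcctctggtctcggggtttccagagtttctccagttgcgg
Tmem140, chr6:34862896-34863195, plus strand: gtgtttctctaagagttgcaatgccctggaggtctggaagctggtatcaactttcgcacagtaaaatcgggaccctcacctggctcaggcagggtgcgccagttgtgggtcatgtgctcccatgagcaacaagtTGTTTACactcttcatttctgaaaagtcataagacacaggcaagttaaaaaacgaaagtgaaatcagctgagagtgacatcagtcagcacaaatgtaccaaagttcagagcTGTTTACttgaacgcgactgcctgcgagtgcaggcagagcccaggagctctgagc
Rcan1, chr16:92400029-92400328, minus strand: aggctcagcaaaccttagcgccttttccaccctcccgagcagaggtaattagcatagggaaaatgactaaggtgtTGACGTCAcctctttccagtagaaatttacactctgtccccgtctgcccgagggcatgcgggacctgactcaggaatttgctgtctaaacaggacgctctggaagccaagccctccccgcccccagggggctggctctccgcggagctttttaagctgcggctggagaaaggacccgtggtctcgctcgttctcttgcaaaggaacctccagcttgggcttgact
The forkhead motif began 121 bases before the Txnip start, and 116 and 5 bases before the Tmem140 start. The cAMP response element began 175 bases before the second Rcan1 start. Of the 12 named genes with the largest rises, 9 were in the table, and 2 of these held the forkhead motif, which stood in 3.65% of all 32851 promoters. None of the 9 held the cAMP response element, which stood in 1.79%, or the E-box, which stood in 7.15%. Of the 12 with the largest falls, 11 were in the table. Rcan1 and Ankrd13c held the cAMP response element, Ankrd13c also the forkhead motif, and Rcan1 an E-box at its first start. A gene was counted if any of its listed starts held the motif, while the shares are of single promoters, so the counts and shares differ in unit. A match describes these letters only.

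Few of insulin's textbook targets in liver passed. In the list of insulin receptor and Foxo genes, 2 of 20 tested members rose, Pdk4 and Txnip, and none fell, where 0.185% of all genes rose and 0.118% fell. All lists were chosen with earlier results of these data known, so a count set beside these shares is not a test. Pdk4 and Txnip also passed without point 3 replicate 2. The list's median difference was 0.08, and 0.15 without that library. Fbxo32 was tested only because it reached 1 FPKM in the point 4 libraries, so it could only be found higher. Over the other 19 members the median was 0.007, beside 0.01 over all genes, and 0.14 without point 3 replicate 2. Igfbp1, a binding protein of insulin-like growth factors, measured 124, 183 and 158 FPKM at point 3 and 495, 224 and 470.1 FPKM at point 4. The groups did not overlap, but the point 4 libraries differed by more than 2-fold, and the difference of 1.28 ± 0.55 did not pass (adjusted p = 0.651, 95% interval 0.14 to 2.42 before adjustment). G6pc, which encodes the enzyme that releases free glucose from hepatocytes, measured 89.9, 139.7 and 90.5 FPKM and then 230.2, 141.7 and 272 FPKM. Its groups were separated only by the small gap between replicate 2 of each point, and the difference of 0.98 ± 0.29 did not pass (adjusted p = 0.234). Replicate 2 was the lowest point 4 library for both genes. Fbxo32, a ubiquitin ligase driven by Foxo, did not pass with a difference of 0.46 ± 0.12 (adjusted p = 0.127) and reached 1 FPKM at point 4 alone, nor did Sesn1, a sestrin, with 0.44 ± 0.14 (adjusted p = 0.333). Insr, the receptor itself, lay between 23.0 and 27.9 FPKM in all 6 libraries, with a difference of -0.03 ± 0.10, and of 0.04 without point 3 replicate 2. Irs2, an adaptor, gave no clear order, at 2.04, 12.7 and 2.66 FPKM and then 5.94, 3.58 and 8.30 FPKM. Its difference was 0.32 ± 0.38, with an interval of -0.47 to 1.11, and turned negative without point 3 replicate 1, at -0.09. The difference was 1.00 without point 3 replicate 2, its highest library, and did not pass either (adjusted p = 0.308).

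Among 12 tested genes of gluconeogenesis, Ppargc1a fell and none rose, beside 0.118% and 0.185% of all genes. The list's median was 0.09. Without point 3 replicate 2, Ppargc1a was again the one member that passed, and the list's median was 0.10. Pck1, the cytosolic phosphoenolpyruvate carboxykinase, lay at 1165, 1736.5 and 1354 FPKM at point 3 and at 1356, 1157 and 1642 FPKM at point 4. The groups overlapped fully, and the difference of -0.03 had an interval of -0.36 to 0.30. Its sign was positive without point 3 replicate 2, at 0.13, and without point 4 replicate 2, at 0.09. The lipogenic regulator Srebf1 gave -0.14 (-0.64 to 0.35) and was positive, at 0.06, without point 3 replicate 2. None of 16 genes of fatty acid synthesis, 21 of sterol synthesis, 24 of fatty acid oxidation and ketogenesis or 19 of glucose uptake, glycolysis and glycogen passed. Since 0.303% of all genes passed, this does not show that these lists did not respond. The medians of these lists were -0.16, -0.07, 0.08 and -0.05. They were -0.20, -0.22, 0.02 and 0.06 without point 3 replicate 2, so the last changed sign, and again no member passed.

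**Figure D2:**
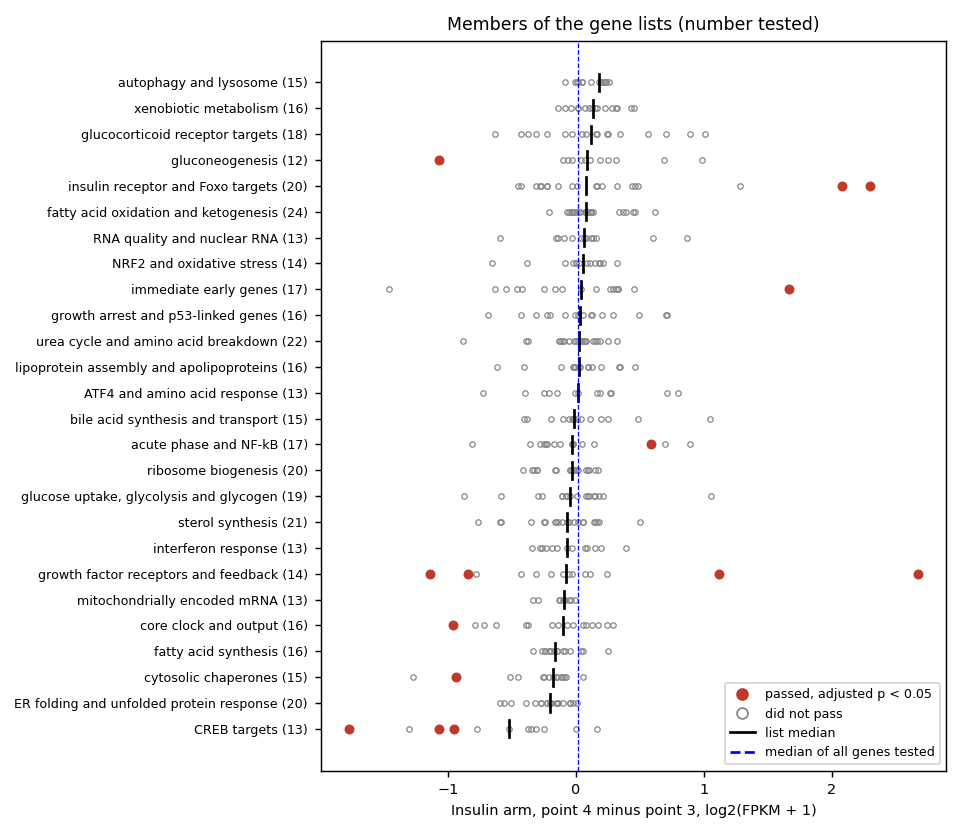
Log2 difference between points 4 and 3 of the insulin arm for the tested members of 26 gene lists; circles are genes, filled where they passed, short black lines are list medians, and the dashed line is the median of all genes. The CREB targets have the lowest median, -0.52, but without point 3 replicate 2 it was -0.18, above those of cytosolic chaperones (-0.33), sterol synthesis (-0.22), ER folding (-0.20) and fatty acid synthesis (-0.20).

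Among CREB targets, 3 of 13 tested genes fell and none rose, where 0.118% of all genes fell and 0.185% rose. They were Nr4a1, Ppargc1a and Pde4d, and the list's median was -0.52, beside 0.01 over all genes. Pde4d was tested only because it reached 1 FPKM in the point 3 libraries, so it could only be found lower, and without it 2 of 12 fell, with a median of -0.45. Without point 3 replicate 2 the median of the 13 was -0.18, and Ppargc1a alone of the list passed. That library had a mean of 3.79 over the list on the log2(FPKM + 1) scale, against 2.89 in each of the other point 3 libraries and 2.46, 2.61 and 2.55 at point 4. Sik1, a kinase that feeds back on CREB coactivators, measured 5.20, 27.9 and 4.85 FPKM at point 3 and 5.07, 4.38 and 5.44 FPKM at point 4. Apart from the single high library, its values were alike at both points, and its difference of -0.77 ± 0.41 did not pass (adjusted p = 0.825) and was -0.02 without that library. Nr4a3, a relative of Nr4a1, measured 3.74, 8.08 and 4.13 FPKM and then 0.973, 3.93 and 0.506 FPKM. Its groups overlapped through point 4 replicate 2, and the difference of -1.30 ± 0.31 missed the threshold (adjusted p = 0.0832). Crem, a CREB-family gene with repressor isoforms, was lower in replicates 1 and 3 of point 4, at 26.1 and 19.6 FPKM, but not in replicate 2, at 52.5. Its point 3 values were 33, 61.0 and 41.3 FPKM. The difference, -0.52, was -0.29 without point 3 replicate 2.

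**Figure D3:**
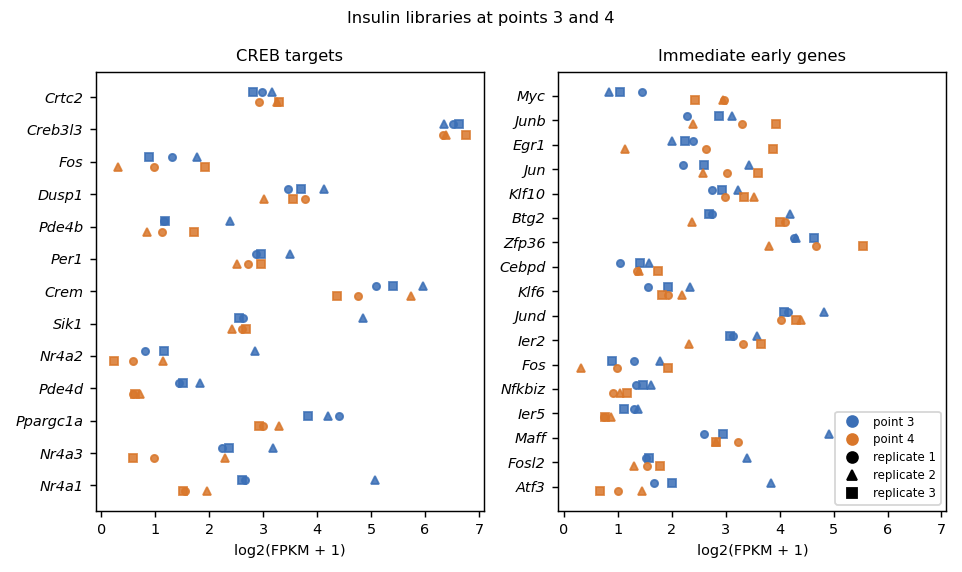
Level on the log2(FPKM + 1) scale of the tested CREB targets and immediate early genes in the 6 insulin libraries; colours mark the point and shapes the replicate. Point 3 replicate 2 (blue triangles) is the highest point 3 library for Nr4a1, Sik1, Maff, Fosl2 and Atf3, and Myc is the one immediate early gene that passed.

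Among 17 immediate early genes, which growth signals and stress induce within minutes, Myc rose and none fell, beside 0.185% and 0.118% of all genes. Without point 3 replicate 2, Myc was again the one member that passed. The list's median was 0.04, and 0.22 without point 3 replicate 2. Ier5 was tested only because it reached 1 FPKM in the point 3 libraries. Over the other 16 members the median was 0.10, and 0.23 without point 3 replicate 2. Atf3, a stress-induced repressor, measured 2.17, 13.3 and 3.00 FPKM and then 1.01, 1.72 and 0.602 FPKM, without overlap. Its difference of -1.46 ± 0.37 did not pass (adjusted p = 0.141) and was -0.79 without point 3 replicate 2 (adjusted p = 0.548). That library was again the highest, as it was for Maff, at 29.3 FPKM against 5.06 and 6.78, and for Fosl2, at 9.54 against 1.89 and 1.98. Their differences, -0.54 and -0.63, were 0.17 and -0.02 without it. Zfp36, Junb and Egr1 were highest in point 4 replicate 3, at 45.6, 14.3 and 13.8 FPKM, and lowest of point 4 in replicate 2, at 12.9, 4.29 and 1.18. Their differences, 0.27, 0.45 and 0.33, did not pass.

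Of 14 growth factor receptors and feedback genes, 2 rose, Erbb3 and Rgs16, and 2 fell, Rcan1 and Pik3r1, beside 0.185% and 0.118% of all genes. Without point 3 replicate 2, only Erbb3 and Rcan1 of these passed, and the list's median moved from -0.08 to 0.03. Egfr, the receptor for epidermal growth factor, had no overlap, at 51.1, 49.1 and 53.6 FPKM and then 37.3, 42.7 and 43.2 FPKM. Its difference of -0.31 ± 0.18 did not pass (adjusted p = 0.865). Dusp6, a phosphatase that inactivates ERK, gave -0.78 ± 0.26 (adjusted p = 0.324). Errfi1, an inhibitor of ErbB receptors, was abundant, at 333 to 462 FPKM and then 421 to 503 FPKM, and gave 0.24 ± 0.11 (adjusted p = 0.673), and 0.37 without point 3 replicate 2 (adjusted p = 0.294).

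Per2 was the one of 16 clock genes that fell, and none rose, beside 0.118% and 0.185% of all genes. Per2 did not pass without point 3 replicate 2 (adjusted p = 0.262). Ciart, Nfil3 and Bhlhe40, repressors linked to the clock, gave -0.79, -0.72 and -0.62 and did not pass. For Nfil3 and Bhlhe40, point 3 replicate 2 stood out at 42.5 and 34.8 FPKM, against 13.4 and 16.7, and 12.3 and 17.7, in the other point 3 libraries. Without it, the differences of Nfil3 and Bhlhe40 were -0.24 and -0.23, that of Ciart was -0.68, and the median of the clock list went from -0.10 to -0.05. Clock, Cry1, Cry2 and Nr1d2 differed by less than 0.20 in either direction. Without that library, Cry1 and Cry2 turned from -0.07 and -0.02 to 0.17 and 0.14. Bag3 was the one of 15 cytosolic chaperones that fell, and none rose, beside 0.118% and 0.185% of all genes. Hspa1b passed in place of Bag3 without point 3 replicate 2. Hspa1b measured 5.94, 1.44 and 6.82 FPKM and then 1.17, 0.880 and 1.31 FPKM, a difference of -1.27 ± 0.37 (adjusted p = 0.203). Here replicate 2 was the low library of point 3. Of the chaperones, 14 of 15 had a negative difference, with a median of -0.18, which was -0.33 without point 3 replicate 2. The same list had a median of -0.10 in the PBS arm.

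Lists of larger programmes held no changed gene, apart from Il6ra in the acute phase list. Of 20 genes of ER folding and the unfolded protein response, 19 had a negative difference, with a median of -0.20, and none passed; the PBS median was -0.14. Of 15 genes of autophagy and the lysosome, 13 had a positive difference, with a median of 0.18, and none passed. No member passed among 18 glucocorticoid receptor targets, 16 growth arrest and p53-linked genes, 13 ATF4 genes, 20 genes of ribosome biogenesis, 22 of the urea cycle and amino acid breakdown, 15 of bile acids, 14 NRF2 genes, 13 interferon genes, 16 lipoprotein genes, 16 of xenobiotic metabolism, 13 mitochondrial mRNAs or 13 marks of RNA quality. In the acute phase list, Il6ra rose, beside 0.185% of all genes, and the other 16 members did not pass. Of all genes tested, 0.303% passed, so lists of this size without a passing member do not show that these programmes did not respond. Without point 3 replicate 2, no member of any list in this paragraph passed. Saa1 varied from 12.2 to 132 FPKM within point 4. In bulk tissue, a change in the share of a cell type and a change in RNA per cell cannot be told apart.

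In the PBS arm, no gene passed between points 3 and 4 (0% of 11872 by limma). There, 483 genes had an unadjusted p below 0.05 against 775 in the insulin arm, the smallest adjusted p was 0.226, and 7 genes passed without PBS point 4 replicate 3. The 3 and 3 PBS libraries did not overlap for 11.5% of genes. A call in one arm and none in the other is no test of a difference, so the steps of the arms were compared directly. They differed in 11 genes, 0.0927% of those tested, with 8 steps higher and 3 lower in the insulin arm. The insulin step and this comparison share the 6 insulin libraries. Of the 36 genes of the insulin step, 9 were among the 11. Without insulin point 3 replicate 2, 3 of the 11 passed and no other gene did.

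Txnip was flat in PBS, at 55.5, 54.6 and 56.1 FPKM and then 62.7, 46.3 and 60.4 FPKM, and its steps differed by 2.06 ± 0.22 (SE, adjusted p = 1.31e-05). Dnmbp measured 10.8, 11.7 and 8.43 FPKM and then 8.47, 8.21 and 8.92 FPKM in PBS. Its difference of steps was 1.80 ± 0.19 (adjusted p = 1.31e-05). Pdk4 was low in PBS, at 3.19, 4.65 and 3.37 FPKM and then 2.80, 1.96 and 2.50 FPKM, and its steps differed by 2.77 ± 0.36 (adjusted p = 2.53e-04). These 3 calls held in each of the 12 fits without a single library. The call of Ppargc1a, -1.20 ± 0.21 (adjusted p = 0.0158), ended in 6 of the 12 fits, with adjusted p of up to 0.0948. PBS levels of Ppargc1a stayed between 1.71 and 2.30 FPKM. Rcan1, at 6.36 to 7.58 FPKM in PBS, gave -1.19 ± 0.23 (adjusted p = 0.0388).

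Rgs16 had steps of opposite sign in the arms. It went from 37.4, 29.8 and 52.4 FPKM to 18.8, 17.8 and 36.4 FPKM in PBS, where the groups overlapped. Its steps differed by 3.40 ± 0.67 (adjusted p = 0.0388), a call that ended with the replicate number as a block (adjusted p = 0.0908). Tpm4 (-1.20), Map2k6 (1.37) and Il6ra (0.95) also differed between the arms, with adjusted p of 0.0388, 0.0497 and 0.0388. With the replicate block, the call of Map2k6 also ended (adjusted p = 0.069). Slc45a3, a sugar transporter, and Ip6k2, an inositol hexakisphosphate kinase, passed this test but not that of the insulin step. Slc45a3 differed by 1.53 ± 0.30, from 0.64 in insulin and -0.90 in PBS. Ip6k2, named after its values were seen, differed by 1.21 ± 0.23, from 0.66 and -0.55. Each of Rcan1, Rgs16, Tpm4, Map2k6, Il6ra, Slc45a3 and Ip6k2 passed in at most 3 of the 12 fits without a single library. Without any one of insulin point 3 replicates 1 and 2, insulin point 4 replicates 1 and 3 or PBS point 3 replicate 2, none of these 7 nor Ppargc1a passed (adjusted p up to 0.193). Ppargc1a did not pass without PBS point 4 replicate 1 either (adjusted p = 0.0557). Insulin point 4 replicate 2 was the one library whose removal ended none of the 11 calls, and each of the other removals ended 5 to 8.

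**Figure D4:**
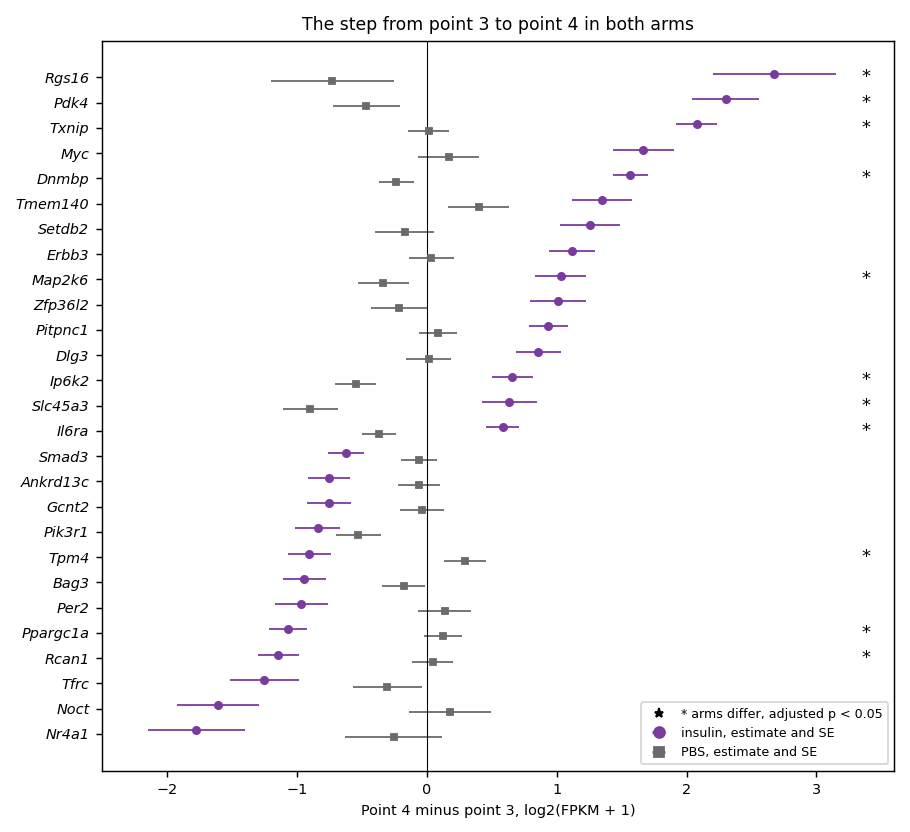
Log2 difference between points 4 and 3 with its SE in the insulin arm (circles) and the PBS arm (squares) for 27 genes; asterisks mark genes whose steps differed between the arms. Txnip, Pdk4 and Dnmbp rose in insulin by 2.08, 2.30 and 1.57 while their PBS estimates were 0.01, -0.47 and -0.23.

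The other points set these levels in context. No insulin library shared a lane with a PBS library, so arm and lane cannot be told apart where levels of the arms are compared. Txnip averaged 28.0, 11.5, 43.6, 185 and 163 FPKM at insulin points 1 to 5, while its PBS means ranged from 29.9 to 56.5. Pdk4 averaged 4.06, 1.94, 6.21, 33.4 and 24.1 FPKM, against 2.09 to 4.22 in PBS. For these genes, the point 4 mean exceeded all PBS means. Dnmbp averaged 9.82, 4.03, 4.04, 14.1 and 13.9 FPKM, against 8.49 to 10.8 in PBS, so its point 3 mean lay below and its point 4 mean above the PBS range. Erbb3 averaged 29.9, 15.9, 6.67, 16.4 and 31.9 FPKM, against 24.0 to 27.9 in PBS, and its point 4 mean was still under that range. Rgs16 averaged 2.68, 1.78, 4.27, 32.4 and 45.4 FPKM in insulin and 5.42, 55.9, 39.9, 24.3 and 13.2 FPKM in PBS.

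Of the genes that fell, Ppargc1a, Rcan1, Nr4a1 and Noct had means above those of PBS at both points. So did Tfrc, Tpm4, Pik3r1, Gcnt2, Ankrd13c and AA986860, while Per2, Bag3, Pde4d and Smad3 were below PBS at point 4. Ppargc1a averaged 1.67, 1.29, 17.0, 7.48 and 7.47 FPKM at insulin points 1 to 5, so point 3 held the highest mean, against 1.73 to 2.53 in PBS. Rcan1 averaged 4.18, 26.0, 30.0, 13.4 and 5.89 FPKM, against 4.82 to 7.07 in PBS. Nr4a1 averaged 0.315, 57.7, 14.3, 2.22 and 0.966 FPKM, and Noct 1.54, 22.2, 19.8, 5.91 and 2.57 FPKM. For both, point 2 held the highest insulin mean and point 4 lay between points 3 and 5. These means describe the groups and were not tested across all points.

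**Figure D5:**
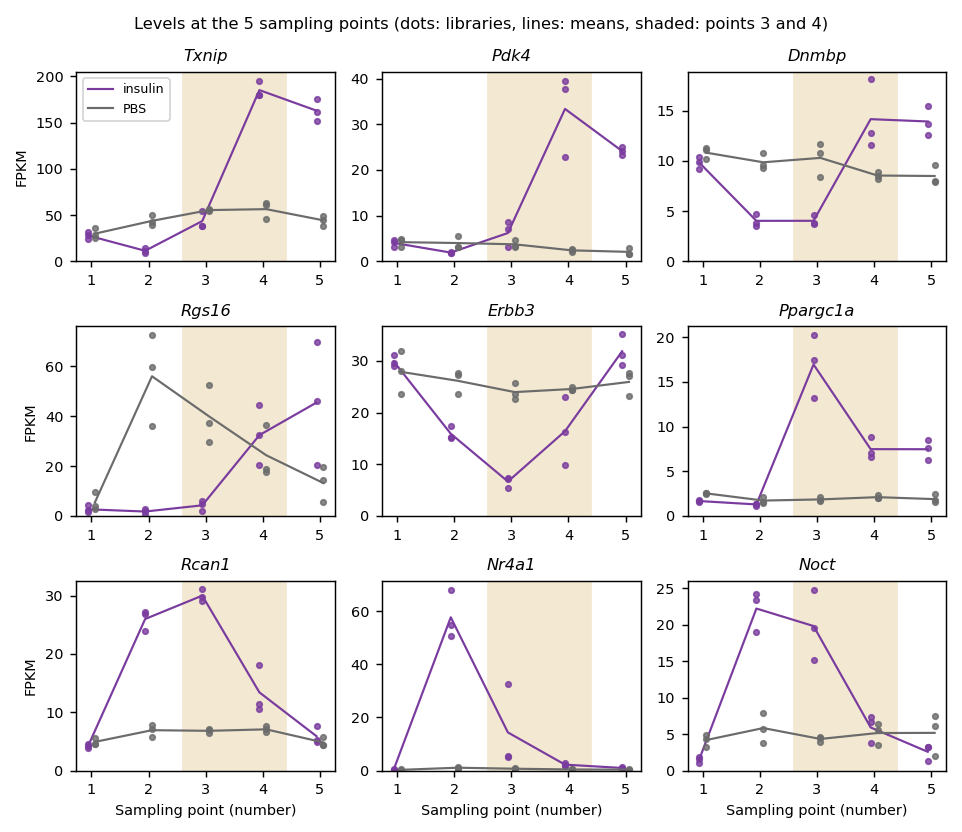
FPKM of 9 changed genes at the 5 numbered sampling points in insulin (purple) and PBS (grey); dots are libraries, lines join means of 3, and the shading covers points 3 and 4. Txnip, Pdk4, Dnmbp, Rgs16 and Erbb3 rise across the shaded step in insulin, and Ppargc1a, Rcan1, Nr4a1 and Noct fall.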

How the data were processed

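Poly(A) RNA of the left liver lobe was sequenced with a directional kit, per the labels' protocols. The authors deposited FPKM per gene. HISAT2 2.1.0, SAMtools 1.9, StringTie 2.0.3 and GRCm38 (mm10) are listed per the submitters' processing notes. For the annotation and the strand setting the labels state nothing, so reads of overlapping or antisense genes cannot be told apart. FPKM are no counts, and no count test was run. Groups came from the sample titles. The design calls the samples biological triplicates; if any shared an animal, the p-values reflect a spread that may be technical. Cells without a value, 32.7% in the 6 libraries, were set to 0, which concerned 130 genes tested and none that changed.

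On the log2(FPKM + 1) scale, limma 3.58.1 (R 4.3.3) was run on all 30 libraries with a mean per group and an intensity trend, leaving 20 residual degrees of freedom. Tests were two-sided, with Benjamini-Hochberg adjustment and a threshold of 0.05. The median SE of the step was 0.17. Intervals are 95% intervals of limma, unadjusted. Named genes were the 12 largest changes in each direction with a mean of at least 2 FPKM, no overlap and a proper symbol, up to 4 passing genes per list, 8 textbook genes, and the 6 largest differences between arms. Some genes that these rules name are not reported here. Other list members are named to describe their list. The contrast and lists were chosen with earlier results of these data known. Depth was estimated from low values, of which 38.9% to 49.1% were whole reads within 0.05, so no reads were recovered. The fit was tested on simulated data. The alternatives tried were a pseudocount of 0.1, other filters and scalings, a replicate block, a lane term, smaller fits, a robust prior and each library or replicate number left out.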

Additional observations from a re-analysis of the deposited data

Results flagged for a closer look

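The following genes are singled out because their step from point 3 to point 4 differed between the insulin and PBS arms in limma's test of the difference itself. The insulin step minus the PBS step, on the log2(FPKM + 1) scale, was 2.06 for Txnip, 1.80 for Dnmbp and 2.77 for Pdk4, and these held in all 12 fits without a single library. It was -1.20 for Ppargc1a, -1.19 for Rcan1, 3.40 for Rgs16, -1.20 for Tpm4, 1.37 for Map2k6, 0.95 for Il6ra and 1.53 for Slc45a3, and each of these calls ended in at least 6 of the 12 fits. Within each arm, same-numbered libraries of points 3 and 4 were on lanes of the same number.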

How the results depend on the processing

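The count of changed genes in the insulin step, 36, was 22 at a mean of 5 FPKM or more, 11 with a lane term in the insulin libraries, 7 in the 15 insulin libraries alone and 3 in the 6 libraries alone, of which 1 was among the 36. Leaving out libraries or replicate numbers gave 6 to 51. It was 24 with a pseudocount of 0.1, 25 without a filter, 39 with median-ratio scaling, 52 with quantile normalization, and 36 with a robust prior or without genes that had missing values. The count for the difference between arms, 11, was 5 without a filter, 6 in its 12 libraries alone and 3 to 15 with libraries left out. In PBS it was 0 in all fits but the one without point 4 replicate 3, with a range of 0 to 7.

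Of the 26 named genes that changed, Txnip alone passed under every alternative, and none reversed. Reversals were limited to genes that did not pass. Pck1 was 0.0171 with quantile normalization, 0.13 without point 3 replicate 2, 0.09 without point 4 replicate 2, and -0.18 to 0.25 with a replicate number left out. Irs2 was -0.09 without point 3 replicate 1, -0.12 without replicate 1, and -0.19 to 1.27 with a replicate number left out. Srebf1 was 0.06 without point 3 replicate 2 and -0.32 to 0.0684 with a replicate number left out. The cause of these changes was not tested. List medians and the differences of list members were also computed without point 3 replicate 2, a choice made after seeing the data.

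Deviations of same-numbered libraries of points 3 and 4 correlated at 0.26, 0.21 and 0.05, and those of differently numbered libraries at -0.26 to 0.06. The main fit did not pair the samples by number, and whether the numbers mark a shared effect was not tested. With the replicate block, 51 genes changed in the insulin step, 25 higher and 26 lower, among them all 36, with 0 in PBS. In the difference 10 passed, of which 9 were among the 11, and the calls of Rgs16 and Map2k6 ended (adjusted p = 0.0908 and 0.069). At the median SE of 0.17, small changes could not be detected, and the smallest change that passed was 0.58.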
